A study of Mus musculus with 43 samples.

Results

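Natural killer (NK) cells of the mouse spleen were compared between animals taken 2 h after an injection of interferon alpha and animals at baseline. The members were chosen by their titles alone, with no measured value used. They are 5 of the 43 arrays of the series, 3 at baseline and 2 after interferon, and all 19752 genes with a value were tested. The series measured RNA with Affymetrix Mouse Gene 1.0 ST arrays, on which short probes along each transcript are summarised into probe sets, in 9 sorted immune cell types with and without interferon. All animals of the groups used here were male C57BL/6 mice of 6 weeks with no allele or transgene named in the labels, and the NK cells came from spleen. The interferon mice received 10000 U of interferon alpha subcutaneously, and the labels name no mock injection for the mice at baseline. RNA was extracted with TriZol and amplified with the Ambion WT Expression Kit. Nothing in the labels ties the arrays to separate mice. The p-values therefore measure only the spread between arrays, which may be technical. In sorted bulk samples, fewer cells of a type and less RNA per cell cannot be told apart.

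The labels of the 5 arrays are not uniform. The sort was labelled NK1.1+ TCRb- on baseline arrays 1 and 2 and NK1.1+ on baseline array 3 and both interferon arrays. The preparation has a shared wording on baseline arrays 1 and 2, another on baseline array 3 and, on the interferon arrays, a wording that no baseline array carries, so wording and treatment cannot be told apart in NK cells. Where the use of baseline array 3 alone, or a term for the wording of baseline arrays 1 and 2, ended the call of a gene whose change is given below, its value is printed beside it. Median intensities of the 5 arrays lay between 105 and 119. Baseline arrays 1 and 3 correlated at 0.993 over all genes and the interferon pair at 0.986, while baseline array 2 stood apart from the other baseline arrays at 0.983 and 0.977. On 2 arrays of the whole series, both of gamma delta T cells, another cell type was nearer than their own.

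The NK label was checked against marker genes. The 14 measured NK markers had a median log2 level of 11.84 to 12.07 on the baseline arrays and 11.63 to 11.96 on the interferon arrays, and none of the 14 was called. Ncr1, which encodes the activating receptor NKp46, stood at 13.29, 13.38 and 13.60 on the baseline arrays and 13.42 and 13.35 on the interferon arrays. T cell markers had medians of 6.32 to 6.86 at baseline and 6.46 to 6.57 after interferon, against 10.1 to 11.0 in CD4 T cells at baseline and a median of 6.79 over all genes on the NK baseline arrays. Cd3e, a T cell receptor complex gene, lay at 7.86, 7.76 and 8.30 on the baseline arrays and 8.14 and 8.25 on the interferon arrays. Baseline and interferon values overlapped, but baseline arrays 1 and 2, for which alone the TCRb- gate is named, had the lowest values. The part of the gate in this was not tested. Macrophage and monocyte markers were higher after interferon: their median level was 6.59 to 6.89 at baseline and 7.03 to 7.42 after interferon, against 12.06 to 12.17 in peritoneal macrophages. Their summed intensity was 1199 to 1382 at baseline and 2010 to 2033 after interferon, and 7 of the 11 were higher on both interferon arrays than on every baseline array, against 13.4% of all genes, with 0 called at an adjusted limma p below 0.05 and a log2 change of at least 1. The median level of B cell markers was highest on interferon array 2, at 7.02, against 5.97 to 6.37 at baseline and 6.18 on interferon array 1. Neutrophil markers had medians of 5.20 to 5.49 at baseline and 5.43 to 5.54 after interferon, and no neutrophil, erythroid, platelet or plasma cell marker was called. Of 12 dendritic cell markers 1 was called, Itgax, the gene of CD11c, which NK cells also express: it fell by 1.18 (SE 0.32, adjusted p = 0.0311), and Itgax came to between -1.32 and -1.04 (highest adjusted p = 0.321) without baseline array 1 or 3 or interferon array 1 or 2. With the preparation term it was -1.14 (adjusted p = 0.0599) and against baseline array 3 alone -1.38 (adjusted p = 0.0851). The summed intensity of the 12 dendritic markers was 3845 to 5202 at baseline and 2968 to 3025 after interferon. Of 5 measured markers of innate lymphoid cells other than NK cells 1 was called, Kit, which fell. The summed intensity of these 5, Kit included, was 871 to 1537 at baseline and 647 to 798 after interferon. The dendritic and innate lymphoid sums were thus both lower on each interferon array than on every baseline array. The members of either list did not fall together. Their median log2 change was 0.077 for the dendritic and 0.129 for the innate lymphoid markers. In each list 2 members were higher and 2 lower on both interferon arrays than on every baseline array.

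Type I interferons bind a receptor present on most cells, and the receptor's kinases activate transcription factors that move to the nucleus. There they bind a DNA element called the interferon-stimulated response element (ISRE) or the related GAS element, and genes beside these elements encode antiviral proteins, sensors and inhibitors of the signal. NK cells are innate lymphocytes that kill infected or transformed cells with perforin and granzymes, release interferon gamma and chemokines, and read their targets through activating and inhibitory receptors; type I interferon is a known inducer of their activation.

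Promoter sequences of genes on which the results turn are shown here, because they let the ISRE letters be read beside the changes. They are the 200 bases before an annotated start of each gene, from RefSeq on build GRCm38.p6, written 5′ to 3′ in the direction of the gene. In Ifit3 and Oas3 this start lies inside the annotated span of the gene, which begins at 34583119 and, on the minus strand, at 120777684. Capitals mark matches to the ISRE letters TTTCNNTTTC on either strand. The genes are Ifit3 (chr19:34583329-34583528, plus strand), Ifit1 (chr19:34640689-34640888, plus strand), Rsad2 (chr12:26456453-26456652, minus strand), Oas3 (chr5:120777660-120777859, minus strand) and Socs1 (chr16:10785537-10785736, minus strand), which hold a match, and Sh2d1b2 (chr1:170232671-170232870, plus strand), Sh2d1b1 (chr1:170277118-170277317, plus strand) and Cxcr4 (chr1:128592300-128592499, minus strand), in which these letters were not found. The first 4 are antiviral genes, Socs1 restrains cytokine signalling, the Sh2d1b pair encode adaptors of activating NK receptors, and Cxcr4 encodes a chemokine receptor.
Ifit3: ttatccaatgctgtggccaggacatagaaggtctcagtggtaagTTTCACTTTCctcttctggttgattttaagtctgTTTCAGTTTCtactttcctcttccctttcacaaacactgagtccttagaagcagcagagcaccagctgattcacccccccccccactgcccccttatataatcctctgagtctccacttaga
Ifit1: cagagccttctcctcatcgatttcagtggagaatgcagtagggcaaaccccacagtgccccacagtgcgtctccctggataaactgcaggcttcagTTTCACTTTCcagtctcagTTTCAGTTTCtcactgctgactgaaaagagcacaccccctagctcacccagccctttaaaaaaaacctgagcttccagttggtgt
Rsad2: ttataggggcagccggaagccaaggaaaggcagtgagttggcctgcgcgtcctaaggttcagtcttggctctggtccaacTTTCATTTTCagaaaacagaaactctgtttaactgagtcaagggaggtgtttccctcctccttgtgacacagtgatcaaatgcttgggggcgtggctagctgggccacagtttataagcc
Oas3: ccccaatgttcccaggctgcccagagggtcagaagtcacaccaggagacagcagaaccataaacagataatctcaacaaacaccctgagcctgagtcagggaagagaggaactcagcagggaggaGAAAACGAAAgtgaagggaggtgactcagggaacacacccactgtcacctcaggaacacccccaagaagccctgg
Socs1: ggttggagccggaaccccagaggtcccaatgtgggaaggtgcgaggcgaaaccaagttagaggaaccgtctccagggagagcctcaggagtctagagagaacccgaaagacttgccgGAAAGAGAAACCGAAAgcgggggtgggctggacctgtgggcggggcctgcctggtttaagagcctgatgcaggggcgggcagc
Sh2d1b2: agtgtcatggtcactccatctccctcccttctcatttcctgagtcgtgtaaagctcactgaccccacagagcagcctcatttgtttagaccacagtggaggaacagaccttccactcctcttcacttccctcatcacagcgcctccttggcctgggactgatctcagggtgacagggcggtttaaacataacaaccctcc
Sh2d1b1: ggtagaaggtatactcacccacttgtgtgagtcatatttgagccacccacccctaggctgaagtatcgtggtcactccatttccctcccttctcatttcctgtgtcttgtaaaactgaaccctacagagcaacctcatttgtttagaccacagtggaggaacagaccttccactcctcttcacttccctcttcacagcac
Cxcr4: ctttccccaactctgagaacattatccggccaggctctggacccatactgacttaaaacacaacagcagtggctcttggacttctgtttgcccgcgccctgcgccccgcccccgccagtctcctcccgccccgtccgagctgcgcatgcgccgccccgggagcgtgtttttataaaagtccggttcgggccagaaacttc

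The Ifit3 and Ifit1 promoters each hold 2 separate matches in the same direction, at positions -156 to -147 and -122 to -113 from the start in Ifit3, and -104 to -95 and -85 to -76 in Ifit1. The Rsad2 match lies at -120 to -111. In Oas3 and Socs1 the element reads on the opposite strand, as GAAANNGAAA, and the 2 Socs1 matches overlap by 4 bases, so that they appear as a single run of capitals. Sh2d1b2 and Sh2d1b1, neighbouring genes on chromosome 1, have similar promoters: at the best ungapped placement 66.2% of 142 overlapping bases were identical.

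The comparison asked which genes of NK cells differ 2 h after interferon alpha. In NK cells 246 genes rose, 1.25% of all tested, and 106 fell, 0.537%, where a change is the difference of mean log2 intensity (interferon minus baseline) and a call needs an adjusted limma p below 0.05 and a log2 change of at least 1. All 246 raised and all 106 lowered genes were separated, with both interferon arrays beyond all 3 baseline arrays, as were 13.4% of all genes upward and 14.2% downward. Rises were larger than falls: 84 of the raised genes had a log2 change of at least 2, 27 of at least 3 and 10 of at least 4, while 2 of the lowered genes, Scd2 and S1pr1, reached a change of -2. The median log2 change of all genes was -0.01. Of the raised genes, 209 were also called with the preparation term and 166 against baseline array 3 alone; of the lowered, 86 and 77. The number of lowered genes depended on single arrays, at 65 without baseline array 1, 241 without baseline array 2, 68 without baseline array 3 and 63 without interferon array 2, while the raised number ranged from 203 to 251 without 1 array.

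The raised genes were largely shared with other cells. Of the 246, 90 were called raised in all 9 cell types, 99 in NK cells and 3 to 7 others, 32 in NK cells and 1 or 2 others and 25 in NK cells alone by this threshold. Of the 106 lowered genes none was called lowered in all 9 types, 15 were called in 3 to 7 others, 37 in 1 or 2 others and 54 in NK cells alone. A call in NK cells alone is not a test that the change differs from other cells, and those tests are given further on.

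**Figure D1:**
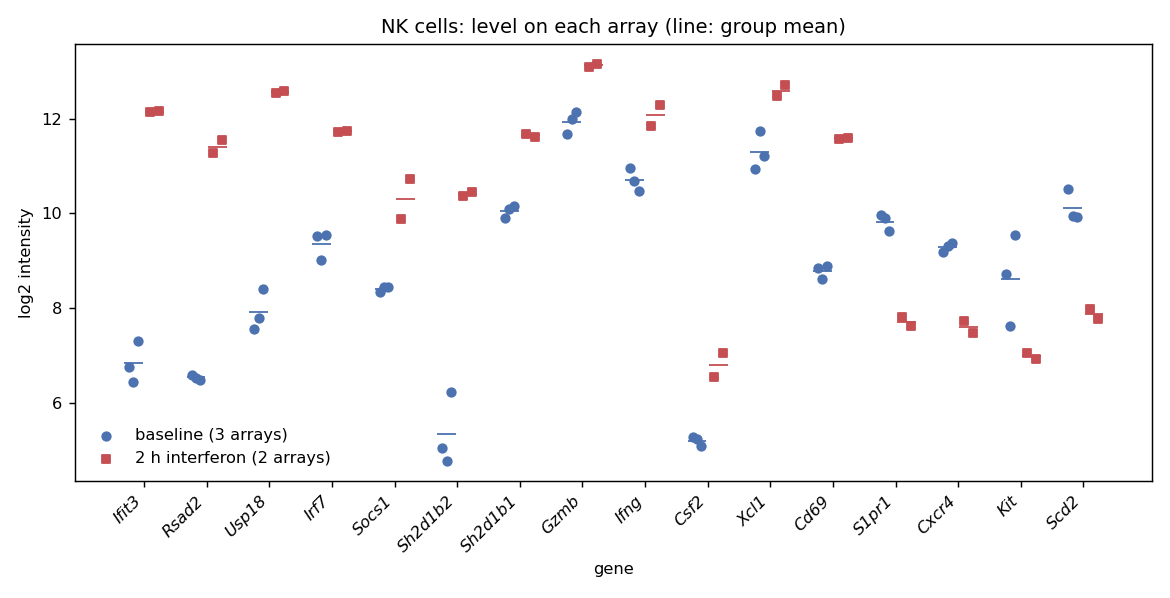
Log2 intensity of 16 genes on each of the 5 NK arrays; blue circles are the 3 baseline arrays, red squares the 2 interferon arrays, and lines the group means. The groups do not overlap for any of the 16 genes drawn, with Ifit3 near 12.1 on both interferon arrays and at most 7.31 at baseline, and S1pr1 and Cxcr4 lower on both interferon arrays.

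Antiviral effector genes rose most. Of 24 measured, 20 rose and none fell, with a median log2 change of 3.17. Over all genes 1.25% rose and 0.537% fell, the shares to set beside this and the later list counts. Ifit3, whose protein is part of a complex that captures foreign RNA, had log2 levels of 6.77, 6.44 and 7.31 on the baseline arrays and 12.14 and 12.15 on the interferon arrays. The 2 interferon arrays agreed closely and lay far above every baseline array, a 39.5-fold rise (log2 change 5.30, SE 0.26, adjusted p = 6.38e-16). Ifit1, which recognises RNA lacking host cap marks, had log2 levels of 6.94, 7.31 and 7.10 on the baseline arrays and 12.02 and 12.36 on the interferon arrays and a change of 5.08 (SE 0.40, adjusted p = 2.19e-11). Rsad2, the gene of viperin, which makes a chain-terminating nucleotide, stood at 6.60, 6.54 and 6.50 on the baseline arrays and 11.27 and 11.55 on the interferon arrays, a log2 change of 4.86 (SE 0.26, adjusted p = 4.89e-15). The baseline values of Rsad2 lay close together, and both interferon arrays stood more than 4 log2 units above them. Mx1 and Mx2, dynamin-like GTPases that block viral replication, changed by 4.51 (SE 0.31) and 4.37 (SE 0.27). The membrane protein gene Ifitm3, which hinders viral entry, had log2 levels of 6.67, 6.31 and 5.65 on the baseline arrays and 9.81 and 10.56 on the interferon arrays. Both interferon arrays were above the baseline range, and Ifitm3 rose by 3.98 (SE 0.46, adjusted p = 1.85e-07).

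The oligoadenylate synthetase family makes the second messenger that activates an RNA-degrading enzyme. Oas3 changed by 3.23, Oas1a by 2.72, Oas2 by 2.37 and Oas1b by 1.82 on the log2 scale, and the related Oasl2 and Oasl1 by 3.79 and 3.10. Isg20, an exonuclease gene, rose by 3.995 from log2 levels of 6.95, 7.72 and 7.08 to 11.24 and 11.25. Eif2ak2, the gene of the RNA-activated kinase PKR that stops translation, rose by 3.09 (SE 0.34), and Bst2, whose protein tethers budding viruses, by 2.35 (SE 0.15). Samhd1, which depletes nucleotides, was already bright at baseline (11.30, 10.59 and 11.55) and rose by 1.39 to 12.53 and 12.54; against baseline array 3 alone its change was 0.99 (adjusted p = 0.0382). The 4 measured members not called were Zc3hav1 (0.77, adjusted p = 0.118), Ifitm2 (0.54), Apobec3 (0.53) and Ifitm1 (0.38).

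Interferon-inducible GTPases, which attack the vacuoles of intracellular microbes, rose in 7 of 8 measured members, with a median log2 change of 1.75. Iigp1 had log2 levels of 5.33, 5.49 and 5.36 on the baseline arrays and 8.37 and 7.77 on the interferon arrays, a change of 2.68 (SE 0.25, adjusted p = 1.04e-09). Irgm1, a regulator of the family, changed by 2.52, and the guanylate-binding genes Gbp9, Gbp5, Gbp7, Gbp4 and Gbp3 by 2.27, 1.78, 1.72, 1.67 and 1.36. Gbp8 had a change of 0.93 (adjusted p = 0.0396), under the size a call needs. Guanylate-binding genes are near copies of each other, and whether probes read more than 1 of them was not tested.

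The ISG15 and ubiquitin-like pathway, which couples a small protein to others or removes it, had 12 raised genes of 13 measured and a median log2 change of 1.85. Usp18, the protease that removes ISG15 and also blocks the interferon receptor, had log2 levels of 7.56, 7.80 and 8.40 on the baseline arrays and 12.54 and 12.57 on the interferon arrays. Interferon values lay more than 4 log2 units above the highest baseline array, and the change was 4.64 (SE 0.26, adjusted p = 7.34e-15). Parp12 and Herc6, the latter the ligase for ISG15 in mice, changed by 3.69 and 3.01, and Parp9, Parp14 and Parp10, of the ADP-ribosyltransferase family, by 2.55, 2.17 and 1.59. Rnf213, a large ubiquitin ligase gene, changed by 2.51 and Trim25, which activates the sensor RIG-I, by 1.85. Smaller rises were those of the ubiquitin-conjugating gene Ube2l6 (1.39), Trim21 (1.32), an antibody receptor in the cytosol, and the activating enzyme gene Uba7 (1.05). Each lost its call when 1 array was left out. Ube2l6 came to 1.14 (adjusted p = 0.236) without interferon array 2. Trim21 came to 1.04 (adjusted p = 0.0620) without interferon array 1. Uba7 came to between 0.81 and 0.94 (highest adjusted p = 0.0810) without baseline array 2 or interferon array 1. Against baseline array 3 alone 9 of the 13 were called, with Ube2l6 at 1.14 (adjusted p = 0.196) and Trim21 at 1.01 (adjusted p = 0.0562).

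Nucleic acid sensors, which detect viral RNA or DNA, rose in 10 of 13 measured members, with a median log2 change of 2.32. Ifih1, the gene of MDA5, a sensor of long double-stranded RNA, had log2 levels of 7.82, 7.36 and 7.50 on the baseline arrays and 10.87 and 10.82 on the interferon arrays and a change of 3.29 (SE 0.28, adjusted p = 2.41e-10). Ddx58, the gene of RIG-I, stood at 10.47, 10.03 and 10.68 on the baseline arrays and 11.95 and 12.03 on the interferon arrays, with no overlap and a log2 change of 1.598 (SE 0.29, adjusted p = 0.000375), which was 1.32 (adjusted p = 0.0529) against baseline array 3 alone. Dhx58, which modulates both, changed by 2.97, and Zbp1, a sensor that can trigger necroptosis, by 2.67. Tlr3, a sensor of RNA in endosomes, changed by 3.01. Tlr7, another endosomal sensor, had log2 levels of 4.47, 4.62 and 4.94 on the baseline arrays and 6.55 and 7.57 on the interferon arrays, with interferon array 2 about 1 log2 unit above interferon array 1, and a change of 2.38 (SE 0.30, adjusted p = 1.00e-06). The adaptor gene Myd88 changed by 1.31 and Ifi203 of the AIM2-like family by 1.33. Myd88 came to 1.26 (adjusted p = 0.0665) without interferon array 2, 0.95 (adjusted p = 0.0988) against baseline array 3 alone and 0.98 (adjusted p = 0.00719) with the preparation term. Ifi203 came to between 1.17 and 1.41 (highest adjusted p = 0.257) without baseline array 3 or interferon array 1 or 2. Mavs, the adaptor behind RIG-I and MDA5, had a change of -0.53 (adjusted p = 0.220), Aim2 of 0.05 and Tlr9 of 0.17.

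The schlafen family, genes that limit protein synthesis or growth in immune cells, had 5 raised of 8 measured. Slfn5 had log2 levels of 6.29, 6.14 and 6.08 on the baseline arrays and 10.88 and 10.63 on the interferon arrays, a change of 4.58 (SE 0.32, adjusted p = 1.89e-12). Slfn1, Slfn9, Slfn8 and Slfn2 changed by 3.30, 2.88, 2.13 and 1.46. Slfn4 was at 0.00 and Slfn3 at 0.88 (adjusted p = 0.0228), below the size a call needs. Slfn3 was called without baseline array 3, at 1.06 (adjusted p = 0.00896), and stood at 0.52 (adjusted p = 0.389) against that array alone.

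**Figure D2:**
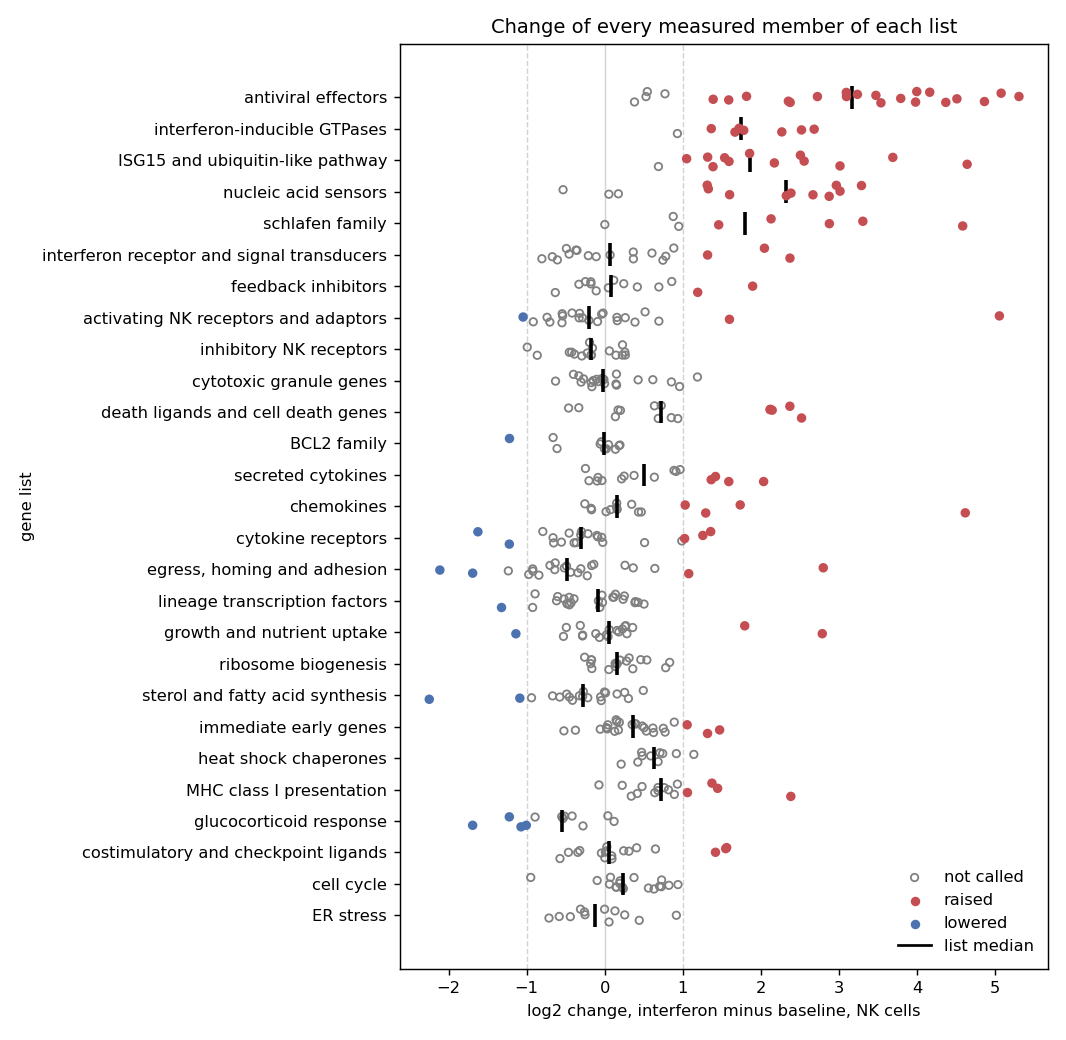
Log2 change (interferon minus baseline) in NK cells of every measured member of the 27 gene lists; filled red points were raised, filled blue points lowered, open points not called, and black lines are list medians. Medians of the first 5 lists lie between 1.75 and 3.17, while those of the receptor and granule lists of NK cells lie between -0.20 and -0.03.

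Among 19 measured genes of the interferon receptor and its signal transducers, 3 rose and none fell, with a median log2 change of 0.07. Irf7, a factor that amplifies interferon production, had log2 levels of 9.52, 9.01 and 9.55 on the baseline arrays and 11.73 and 11.74 on the interferon arrays and a change of 2.37 (SE 0.24, adjusted p = 9.31e-09). Stat2 changed by 2.04 (SE 0.24) and Irf9 by 1.32 (SE 0.23), which was 0.88 (adjusted p = 0.0766) against baseline array 3 alone. Neither receptor chain reached the size of a call: Ifnar1 had a change of -0.81 (adjusted p = 0.0186) and Ifnar2 of -0.67 (adjusted p = 0.0188). The kinase genes Jak1 and Tyk2 had changes of -0.46 and -0.61, and Stat4, which drives interferon gamma in NK cells, of -0.37.

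Feedback inhibitors of cytokine signalling had 2 raised of 14. Socs1, which inhibits JAK kinases, had log2 levels of 8.34, 8.46 and 8.45 on the baseline arrays and 9.88 and 10.73 on the interferon arrays; the interferon arrays differed from each other by more than the whole baseline range but both lay above it, and Socs1 rose by 1.89 (SE 0.20, adjusted p = 3.69e-08). Cish, an inhibitor of interleukin 15 signalling in NK cells, rose from 6.88, 6.75 and 6.91 to 7.84 and 8.23, a change of 1.19 (SE 0.22, adjusted p = 0.000580), and Cish came to 1.00 (adjusted p = 0.0609) without interferon array 2. Socs3 had a change of 0.86 (adjusted p = 0.0568).

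Within the lists of NK receptor genes the calls were mainly on 2 adaptors. Of 23 measured activating receptors and adaptors 2 rose and 1 fell (median log2 change -0.20), and of 17 inhibitory receptors none was called by limma, with a median of -0.18; Klrb1b was nearest at -0.99 (adjusted p = 0.0328). Sh2d1b2, which encodes the adaptor EAT-2B behind receptors of the SLAM family, had log2 levels of 5.06, 4.79 and 6.23 on the baseline arrays and 10.37 and 10.46 on the interferon arrays. Baseline array 3 was more than 1 log2 unit above the other baseline arrays, yet both interferon arrays stood more than 4 log2 units above it. The 33.2-fold rise (log2 change 5.05, SE 0.33, adjusted p = 2.36e-13) was exceeded only by those of Ifit3 and Ifit1 among the 25 named rises, and against baseline array 3 alone the change was 4.18 (adjusted p = 3.09e-07). Its neighbour Sh2d1b1, which encodes EAT-2, was already well expressed, at 9.89, 10.10 and 10.16, and reached 11.68 and 11.61, a change of 1.597 (SE 0.27, adjusted p = 0.000129). The 2 genes are close copies, and whether the probes of either read the other was not tested.

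Most receptors themselves were not called. Ncr1 had a log2 change of -0.04, Klrk1 (NKG2D) of -0.02, Klrb1c (NK1.1) of -0.42 and Cd226 (DNAM-1) of 0.26. Tyrobp (DAP12), an adaptor of activating NK receptors, had a change of 0.16. Fcgr3, the Fc receptor through which NK cells kill antibody-coated targets, had log2 levels of 9.56, 10.13 and 9.99 on the baseline arrays and 9.03 and 8.67 on the interferon arrays and fell by 1.05 (SE 0.26, adjusted p = 0.0132), but Fcgr3 came to between -0.997 and -0.87 (highest adjusted p = 0.272) without baseline array 2 or 3 or interferon array 2 and to -1.14 (adjusted p = 0.114) against baseline array 3 alone. Slamf6, a receptor that signals through Sh2d1a and the EAT-2 adaptors, had a change of -0.92 (adjusted p = 0.0217). Among inhibitory receptors Klra3 (Ly49C) had a change of -0.86 (adjusted p = 0.415), Klrd1 (CD94) of -0.29, Klrc1 (NKG2A) of -0.19, Tigit of -0.18 and Lag3 of 0.26.

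No cytotoxic granule gene was called by limma among 22 measured, and their median log2 change was -0.03. Gzmb, the granzyme that starts apoptosis in targets, was bright at baseline, at 11.68, 11.98 and 12.14, and stood at 13.09 and 13.15 after interferon. The groups did not overlap, but the log2 change of 1.19 did not pass the test (SE 0.45, adjusted p = 0.173). Gzmc had a change of 0.96 (adjusted p = 0.000143), just under the size a call needs, on low levels of 5.06, 4.88 and 5.32 and 6.16 and 5.93. Prf1 (perforin), Gzma and Nkg7 had changes of -0.01, -0.17 and -0.10, and Stx11, a fusion protein gene of granule release, of 0.85 (adjusted p = 0.00892).

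Death genes rose in 5 of 15 measured members. Tnfsf10, which encodes the death ligand TRAIL, had log2 levels of 7.77, 7.29 and 8.02 on the baseline arrays and 9.92 and 9.75 on the interferon arrays and rose by 2.14 (SE 0.27, adjusted p = 1.09e-06). Casp4, the caspase of the inflammatory cell death pathway, rose by 2.52, Mlkl, the executioner of necroptosis, by 2.12, Xaf1 by 2.37 and Daxx by 2.12. Fasl, the second death ligand of NK cells, was 10.29, 10.51 and 10.30 at baseline and 11.24 and 11.19 after interferon, a change of 0.85 (adjusted p = 0.000961) under the size of a call. In the BCL2 family 1 of 11 genes changed: Bcl2l11, which encodes the pro-apoptotic protein BIM, fell by 1.23 (SE 0.27, adjusted p = 0.00484), and Bcl2l11 came to -1.05 (highest adjusted p = 0.133) without baseline array 1 or interferon array 1. Bcl2 and Mcl1, which keep NK cells alive, had changes of -0.61 and 0.18.

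Cytokine genes rose in 4 of 16 measured members, and none fell. Ifng, which encodes interferon gamma, had log2 levels of 10.95, 10.68 and 10.47 on the baseline arrays and 11.85 and 12.28 on the interferon arrays, a 2.57-fold rise (log2 change 1.36, SE 0.22, adjusted p = 8.85e-05) with no overlap between the groups. Csf2, the gene of GM-CSF, lay low on the baseline arrays, at 5.28, 5.25 and 5.10, and rose to 6.55 and 7.05, a change of 1.59 (SE 0.22, adjusted p = 4.04e-06). Csf1, the macrophage growth factor gene, rose by 1.42. Il15, the survival factor of NK cells, had log2 levels of 7.62, 7.59 and 7.39 on the baseline arrays and 9.49 and 9.64 on the interferon arrays and rose by 2.03 (SE 0.30, adjusted p = 2.01e-05). Tnf had a change of 0.68 (adjusted p = 0.172).

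Chemokine genes rose in 4 of 15 measured members. Cxcl10, which draws cells bearing CXCR3, had log2 levels of 7.69, 7.46 and 7.56 on the baseline arrays and 11.90 and 12.47 on the interferon arrays, a 24.5-fold rise (log2 change 4.62, SE 0.30, adjusted p = 2.57e-13). Xcl1, by which NK cells recruit cross-presenting dendritic cells, had 10.94, 11.74 and 11.21 on the baseline arrays and 12.48 and 12.70 on the interferon arrays and rose by 1.29 (SE 0.30, adjusted p = 0.00721). Ccl4 rose by 1.03 and Cxcl9 by 1.73, from 6.01, 6.49 and 6.03 to 7.39 and 8.43, where interferon array 2 was 1 log2 unit above interferon array 1. Single arrays decided these 3 smaller calls. Xcl1 came to between 1.11 and 1.18 (highest adjusted p = 0.145) without baseline array 1 or interferon array 2. Ccl4 came to between 0.83 and 0.99 (highest adjusted p = 0.218) without baseline array 2 or 3 or interferon array 2. Cxcl9 came to between 1.21 and 1.66 (highest adjusted p = 0.522) without baseline array 1 or 3 or interferon array 2, and to 1.88 (adjusted p = 0.0766) against baseline array 3 alone and 1.55 (adjusted p = 0.0915) with the preparation term. Ccl3 and Ccl5 had changes of 0.43 and -0.17. Il15, Cxcl9, Tlr7 and Cd86 are also expressed by macrophages. In peritoneal macrophages they changed by 2.65, 0.13, 0.75 and 0.59, and in CD8 T cells by -0.03, -0.67, 2.96 and 2.13. The 11 macrophage and monocyte markers had a summed intensity of 1199 to 1382 at baseline and 2010 to 2033 after interferon on the NK arrays. The part of macrophages in these 4 rises was not tested.

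Cytokine receptors changed in both directions, 3 up and 2 down of 21. Il12rb1, a chain of the interleukin 12 receptor, rose by 1.36 (SE 0.18, adjusted p = 1.97e-06) from 8.79, 8.53 and 8.97 to 10.32 and 9.92. Il2ra, the high-affinity chain of the interleukin 2 receptor, rose by 1.26 (SE 0.25, adjusted p = 0.00148) and Il6st, a shared signalling chain, by 1.02 (SE 0.27, adjusted p = 0.0216). Both depended on single arrays. Il2ra came to 1.08 (adjusted p = 0.0859) without interferon array 2 and to 0.99 (adjusted p = 0.0494) against baseline array 3 alone. Il6st came to between 0.78 and 1.14 (highest adjusted p = 0.273) without baseline array 1 or 2 or interferon array 1 or 2, and to 0.57 (adjusted p = 0.362) against baseline array 3 alone and 0.87 (adjusted p = 0.0688) with the preparation term. Kit, the stem cell factor receptor, had log2 levels of 8.72, 7.62 and 9.54 on the baseline arrays and 7.07 and 6.93 on the interferon arrays. Baseline arrays differed by almost 2 log2 units, but both interferon arrays were below the lowest of them, and Kit fell by 1.62 (SE 0.30, adjusted p = 0.000590); against baseline array 3 alone the change was -2.54 (adjusted p = 6.78e-05). Kit also marks innate lymphoid cells, whose summed marker intensity is given above and includes Kit, and the part of such cells in the fall was not tested. Il7r, the interleukin 7 receptor, fell by 1.22 (SE 0.27, adjusted p = 0.00502), and Il7r came to between -1.23 and -1.22 (highest adjusted p = 0.0681) without interferon array 1 or 2 and to -1.14 (adjusted p = 0.115) against baseline array 3 alone. The interferon gamma receptor gene Ifngr1 had a change of -0.79 (adjusted p = 0.00504) and the interleukin 15 receptor chain Il2rb of -0.09.

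Genes of egress, homing and adhesion had 2 raised and 2 lowered members, with a list median of -0.49. Of the 23, 11 were lower on both interferon arrays than on every baseline array, against 14.2% of all genes. Cd69, which holds lymphocytes in tissue by removing the receptor S1PR1 from the surface, had log2 levels of 8.85, 8.63 and 8.89 on the baseline arrays and 11.57 and 11.60 on the interferon arrays and rose 6.95-fold (log2 change 2.80, SE 0.25, adjusted p = 4.47e-10). S1pr1, the receptor that leads lymphocytes out of tissue, had 9.96, 9.90 and 9.63 on the baseline arrays and 7.81 and 7.63 on the interferon arrays, with no overlap, and fell 4.32-fold (log2 change -2.11, SE 0.26, adjusted p = 4.57e-07). Cxcr4, which retains cells in bone marrow, had 9.19, 9.32 and 9.37 on the baseline arrays and 7.72 and 7.49 on the interferon arrays and fell by 1.69 (SE 0.23, adjusted p = 3.09e-06). S1pr5, the egress receptor typical of NK cells, had levels of 11.09, 9.69 and 11.28 on the baseline arrays and 10.09 and 9.997 on the interferon arrays, which overlapped, and a change of -0.64 (adjusted p = 0.279). Cxcr3, S1pr4 and Cd44 had changes of -0.97 (adjusted p = 0.00500), -0.92 (adjusted p = 0.00336) and -0.92 (adjusted p = 0.00763), and Ccr2 of -1.24 (adjusted p = 0.137). Icam1, an adhesion ligand, rose by 1.08 (SE 0.22, adjusted p = 0.00154), and Icam1 came to 0.87 (adjusted p = 0.0155) without baseline array 2, 0.68 (adjusted p = 0.251) against baseline array 3 alone and 0.95 (adjusted p = 0.00750) with the preparation term.

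The factors that define the NK lineage were not called. Of 25 lineage transcription factors 1 fell and none rose. Lef1 fell from 9.97, 9.87 and 9.91 to 8.58 and 8.59, a change of -1.33 (SE 0.18, adjusted p = 4.07e-06). Tbx21 (T-bet) had a change of 0.10, Eomes of -0.43, Id2 of -0.39 and Nfil3 of 0.43, none of them called. Ets1 and Zbtb16 had changes of -0.92 (adjusted p = 0.00809) and -0.89 (adjusted p = 0.0239).

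Growth genes changed singly. Myc, a driver of growth and metabolism in lymphocytes, had log2 levels of 9.52, 9.06 and 9.09 on the baseline arrays and 10.82 and 11.20 on the interferon arrays and rose by 1.79 (SE 0.26, adjusted p = 9.33e-06). Nampt, the enzyme that recycles nicotinamide, rose by 2.79 (SE 0.35, adjusted p = 8.77e-07). Slc43a2, which encodes a carrier of amino acids, fell by 1.14 (SE 0.25, adjusted p = 0.00403), and Slc43a2 came to -0.73 (adjusted p = 0.292) without interferon array 1. The other 17 of 20 growth and nutrient genes were not called, among them Slc7a5 (0.23), Slc2a1 (-0.28) and Hk2 (0.16). No gene of 18 for ribosome biogenesis, 18 of the cell cycle, 10 heat shock chaperones or 12 of the stress of the endoplasmic reticulum was called by limma. The heat shock list had a median log2 change of 0.64. Of its 10 genes, 7 were higher on both interferon arrays than on every baseline array, against 13.4% of all genes. Hsph1 had 1.14 (adjusted p = 0.0604) and Hspa5 0.92 (adjusted p = 0.0132).

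Lipid synthesis held the largest fall among the 106 lowered genes. Scd2, which puts a double bond into saturated fatty acids, had log2 levels of 10.51, 9.94 and 9.92 on the baseline arrays and 7.98 and 7.77 on the interferon arrays and fell by 2.25 (SE 0.26, adjusted p = 1.66e-07). Elovl6, which lengthens fatty acids, fell by 1.09 (SE 0.27, adjusted p = 0.0136), and Elovl6 came to between -1.13 and -0.95 (highest adjusted p = 0.156) without baseline array 1 or 3 or interferon array 1 or 2. The other 18 of 20 sterol and fatty acid genes were not called, with Fasn at -0.67 (adjusted p = 0.0378) and Abca1, a cholesterol exporter gene, at -0.94 (adjusted p = 0.0553).

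Immediate early genes, which answer receptor signals within minutes, rose in 3 of 26. Egr2 had log2 levels of 7.47, 7.44 and 7.73 on the baseline arrays and 8.92 and 9.12 on the interferon arrays and rose by 1.47 (SE 0.25, adjusted p = 0.000185), Egr1 by 1.32 (SE 0.30, adjusted p = 0.00604) and Nr4a1 by 1.05 (SE 0.31, adjusted p = 0.0464). Egr1 came to 0.97 (adjusted p = 0.279) without interferon array 2 and to 1.23 (adjusted p = 0.159) against baseline array 3 alone. Nr4a1 came to between 0.89 and 1.15 (highest adjusted p = 0.274) without any single NK array, and to 0.90 (adjusted p = 0.326) against baseline array 3 alone and 1.07 (adjusted p = 0.0657) with the preparation term. Fos, Jun and Junb had changes of 0.89 (adjusted p = 0.188), 0.40 and 0.53.

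MHC class I presentation shows peptides to T cells and spares a cell from NK attack. Of its 16 measured genes 4 rose, with a list median log2 change of 0.72. Of the 16, 13 were higher on both interferon arrays than at baseline, against 13.4% of all genes. H2-T24, a nonclassical class I gene, had log2 levels of 8.58, 7.92 and 8.81 on the baseline arrays and 10.84 and 10.80 on the interferon arrays and rose by 2.38 (SE 0.22, adjusted p = 1.10e-09). Nlrc5, the activator of class I genes, rose by 1.44 and the immunoproteasome gene Psmb8 by 1.37. Tap1, the peptide transporter gene, rose by 1.06 (SE 0.20, adjusted p = 0.000738), and Tap1 came to between 0.84 and 0.92 (highest adjusted p = 0.0504) without baseline array 2 or interferon array 1 and to 0.81 (adjusted p = 0.116) against baseline array 3 alone. B2m, the shared light chain, had a change of -0.07. Costimulatory and checkpoint ligands rose in 3 of 18: Cd274 (PD-L1) by 1.42 (SE 0.29, adjusted p = 0.00195), Cd86 by 1.55 (SE 0.27, adjusted p = 0.000242) and Tnfsf8 (CD30 ligand) by 1.56 (SE 0.30, adjusted p = 0.000884); of these Cd274 came to 1.26 (adjusted p = 0.0747) without interferon array 1. Against baseline array 3 alone the changes of Cd274, Tnfsf8 and Nlrc5 were 0.87 (adjusted p = 0.158), 0.91 (adjusted p = 0.202) and 1.16 (adjusted p = 0.119).

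Of 12 genes known to respond to glucocorticoids 4 fell and none rose, with a median log2 change of -0.54. These were Cxcr4 and Il7r, given above, Zfp36l2, which fell by 1.07 (SE 0.31, adjusted p = 0.0425), and Sgk1, which fell by 1.01 (SE 0.25, adjusted p = 0.0130). Zfp36l2 came to between -1.22 and -0.92 (highest adjusted p = 0.328) without baseline array 1 or 3 or interferon array 1 or 2, and to -1.22 (adjusted p = 0.114) against baseline array 3 alone and -0.96 (adjusted p = 0.104) with the preparation term. Sgk1 came to between -1.01 and -0.76 (highest adjusted p = 0.131) without baseline array 3 or interferon array 1 or 2. Tsc22d3, Fkbp5 and Per1, which glucocorticoids induce in many cells, had changes of -0.28, -0.55 and -0.54, not called.

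Other genes among the 20 largest named falls have various roles. Klf3, a repressor of the Kruppel family, fell by 1.54 (SE 0.26, adjusted p = 0.000111) from 11.06, 10.35 and 10.76 to 9.42 and 8.94. Sesn1, an inhibitor of growth signalling, fell by 1.51 (SE 0.22, adjusted p = 1.18e-05), the kinesin gene Kif21b by 1.48, Klhl24 by 1.55 and the phosphatase gene Cdc25b, which starts mitosis, by 1.34. Sgsh, a lysosomal sulfatase gene, fell by 1.46, Rtn4rl1 by 1.57 and Hs3st3b1, an enzyme of heparan sulfate, by 1.38. Nt5e, which encodes CD73, an enzyme that makes adenosine, fell by 1.35 (SE 0.27, adjusted p = 0.00147) and the proton channel gene Hvcn1 by 1.44 (SE 0.31, adjusted p = 0.00332). Nt5e came to -1.17 (adjusted p = 0.0811) without interferon array 2. Hvcn1 came to -1.37 (adjusted p = 0.0665) without interferon array 1. The rule for the named falls required groups that do not overlap, so that holds for these 10 genes by selection.

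**Figure D3:**
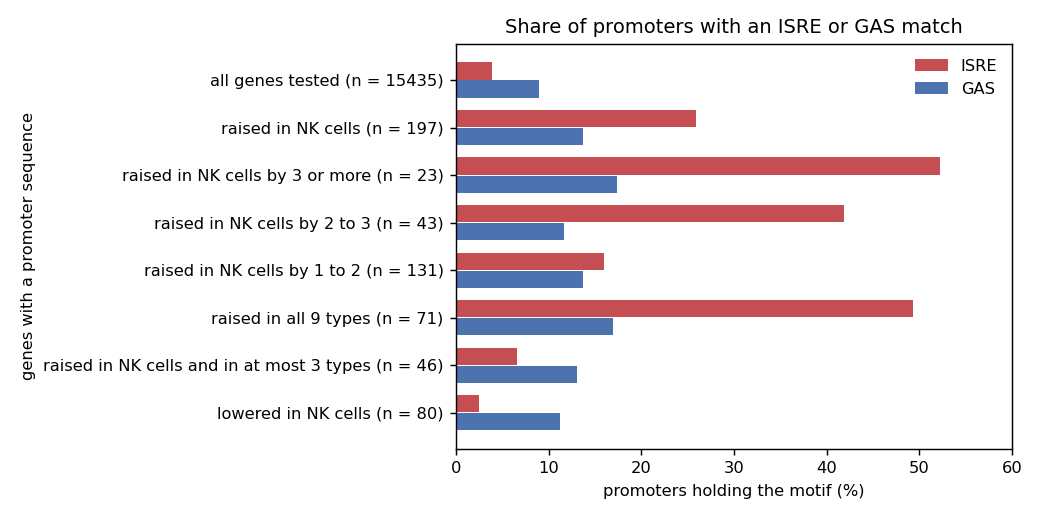
Share of promoters (300 bases around an annotated start) with a match to the ISRE letters (red) or GAS letters (blue) in groups of genes. Each n is the number of genes with a promoter sequence. The ISRE share is 3.88% over all genes and 52.2% for genes raised by 3 or more, while the GAS share lies between 8.97% and 17.4% in the groups drawn.

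Promoters of raised genes held the ISRE letters more often than promoters at large. RefSeq promoters, from 250 bases before to 50 after the start, were matched for 15435 of the 19752 genes, and TTTCNNTTTC was found on either strand in 3.88% of these. Of 197 raised genes with a promoter 51 held it (25.9%), as did 12 of 23 raised by at least 3 on the log2 scale (52.2%), 18 of 43 raised by 2 to 3 (41.9%), 21 of 131 raised by 1 to 2 (16%) and 2 of 80 lowered genes (2.5%). Genes raised in all 9 cell types held it in 35 of 71 promoters (49.3%) and genes raised in NK cells and at most 2 further types in 3 of 46 (6.52%). The GAS letters TTCNNNGAA, which read the same on both strands, were found in 8.97% of all promoters, in 27 of 197 raised genes (13.7%) and in 9 of 80 lowered genes (11.2%). These shares are descriptions of letters in a window and no test was made of them.

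The next question was where the response of NK cells differs from that of other cells, tested as the NK change minus the mean change of the other 8 types in the same fit. The difference was positive for 16 genes, 0.081% of those tested, and negative for 26, 0.132%. Of the 16, 15 were raised in NK cells; of the 26, 14 were lowered in NK cells and 2 raised, but less than elsewhere. Sh2d1b2 stood out from all others, at 4.56 (SE 0.35, adjusted p = 2.34e-10). Its log2 change was 5.05 in NK cells and 2.46 in NKT cells, and between -0.17 in dendritic cells and 0.42 in CD4 T cells among the other 7. Sh2d1b1 had a difference of 1.72 (SE 0.29, adjusted p = 0.00288), with changes of 1.597 in NK cells, 1.70 in NKT cells and -1.34 in dendritic cells. These counts rested on few arrays: without baseline array 1 and interferon arrays 1 and 2 the positive differences numbered 8, 5 and 2, and without baseline arrays 1, 2 and 3 and interferon arrays 1 and 2 the negative ones numbered 14, 60, 12, 9 and 0, the last with 467 genes lower at an unadjusted limma p below 0.05. The difference of Sh2d1b2 was called in every setting run, and that of Sh2d1b1 was lost in 3. Sh2d1b1 came to between 1.69 and 1.76 (highest adjusted p = 0.0761) without interferon array 1 or 2 and to 1.47 (adjusted p = 0.229) against baseline array 3 alone.

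**Figure D4:**
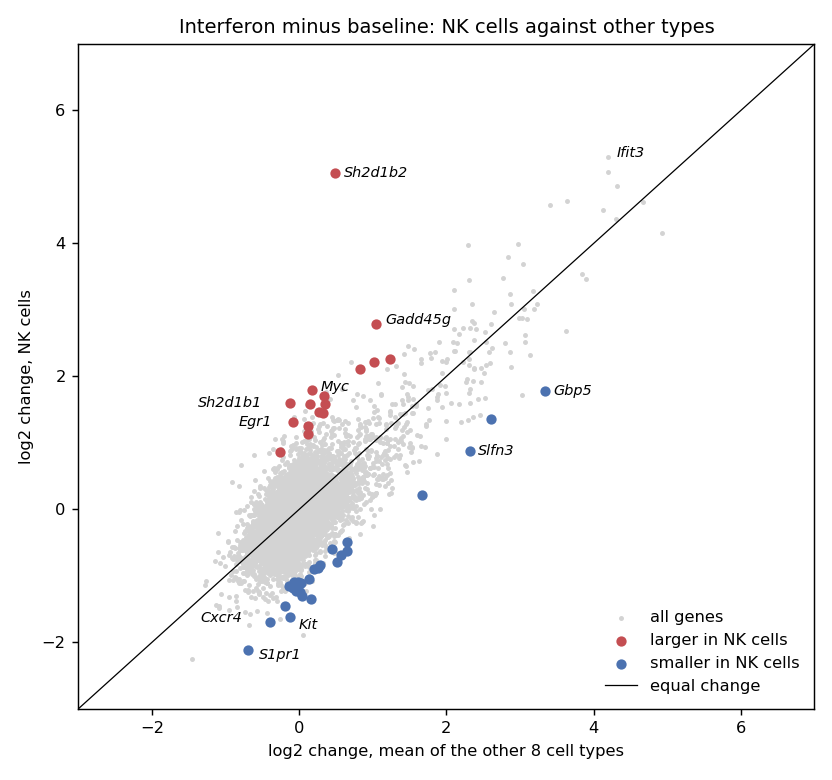
Log2 change in NK cells (vertical) against the mean log2 change of the other 8 cell types (horizontal) for all 19752 genes; the line marks equal change, red points the 16 genes with a called positive difference and blue points the 26 with a negative one. Sh2d1b2 lies far above the line at 5.05 in NK cells against 0.49 on average elsewhere, and Gbp5 and Slfn3 lie below it.

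The positive side included signalling and growth genes. Csf2 changed by 1.59 in NK cells and by -0.05 to 0.43 in the other 8 types, a difference of 1.44 (SE 0.23, adjusted p = 0.00243). Myc had a difference of 1.62 (SE 0.27, adjusted p = 0.00335), with changes of 1.26 in NKT cells and 0.95 in gamma delta T cells and at most 0.23 in the rest. Muc1, a membrane mucin gene, rose by 1.71 in NK cells and differed by 1.38 (SE 0.22, adjusted p = 0.00243), and Gadd45g, a stress sensor gene, rose by 2.79 and differed by 1.74 (SE 0.34, adjusted p = 0.00951). Egr1 and Egr2 differed by 1.39 (SE 0.32, adjusted p = 0.0424) and 1.199 (SE 0.27, adjusted p = 0.0380). Leaving out single NK arrays ended each of these calls. Csf2 came to 1.19 (adjusted p = 0.170) without interferon array 2. Myc came to 1.43 (adjusted p = 0.170) without interferon array 2. Muc1 came to 1.19 (adjusted p = 0.164) without interferon array 2. Gadd45g came to between 1.67 and 1.75 (highest adjusted p = 0.190) without baseline array 1 or interferon array 1 or 2. Egr1 came to between 1.05 and 1.74 (highest adjusted p = 0.748) without any single NK array. Egr2 came to between 1.1 and 1.30 (highest adjusted p = 0.457) without any single NK array. Csf2 kept its call against baseline array 3 alone, while the differences of Myc, Muc1, Gadd45g, Egr1 and Egr2 lay between 1.08 and 1.54 (adjusted p from 0.0848 to 0.523).

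On the negative side, the guanylate-binding genes Gbp5 and Gbp3 rose less in NK cells. Gbp5 rose by 1.78 in NK cells and by 1.91 in regulatory T cells to 6.13 in neutrophils, a difference of -1.55 (SE 0.28, adjusted p = 0.00664), and Gbp3 differed by -1.24 (SE 0.23, adjusted p = 0.00711). Slfn3 had a change of 0.88 in NK cells and 1.15 to 2.91 elsewhere, a difference of -1.44 (SE 0.25, adjusted p = 0.00362). S1pr1 fell by 2.11 in NK cells, while the other 8 types averaged -0.69, a difference of -1.42 (SE 0.27, adjusted p = 0.00909). Its change in those types ran from -1.54 in macrophages to -0.09 in dendritic cells. Cxcr4 differed by -1.29 (SE 0.24, adjusted p = 0.00711), with changes from -1.10 in gamma delta T cells to 0.20 in macrophages. For neither gene was the difference from NKT or from CD8 T cells called by limma. Kit differed by -1.498 (SE 0.32, adjusted p = 0.0257) and Nt5e by -1.502 (SE 0.29, adjusted p = 0.00833). Klrb1, a C-type lectin receptor gene, fell by 1.30 in NK cells and differed by -1.34 (SE 0.27, adjusted p = 0.0137). Its fall in NK cells was -0.82 (adjusted p = 0.218) without interferon array 2, where the call was lost. These calls too were lost without single arrays. Gbp5 came to -1.37 (adjusted p = 0.245) without interferon array 2. Gbp3 came to between -1.26 and -1.23 (highest adjusted p = 0.170) without interferon array 1 or 2. Slfn3 came to -1.37 (adjusted p = 0.163) without interferon array 2. S1pr1 came to between -1.51 and -1.33 (highest adjusted p = 0.245) without baseline array 1 or interferon array 1 or 2. Cxcr4 came to between -1.41 and -1.17 (highest adjusted p = 0.245) without interferon array 1 or 2. Kit came to between -1.56 and -1.04 (highest adjusted p = 0.346) without baseline array 1 or 3 or interferon array 1 or 2. Nt5e came to between -1.68 and -1.33 (highest adjusted p = 0.267) without interferon array 1 or 2. Klrb1 came to between -1.30 and -0.86 (highest adjusted p = 0.662) without baseline array 1 or 3 or interferon array 2. Slfn3 and Kit kept their calls against baseline array 3 alone, while the differences of Gbp5, Gbp3, S1pr1, Cxcr4, Nt5e and Klrb1 lay between -1.73 and -1.02 (adjusted p from 0.0848 to 0.391). With the 6 lymphocyte types alone 10 positive and 8 negative differences were called, and Gbp5 and Gbp3 came to -0.84 (adjusted p = 0.408) and -0.84 (adjusted p = 0.235).

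**Figure D5:**
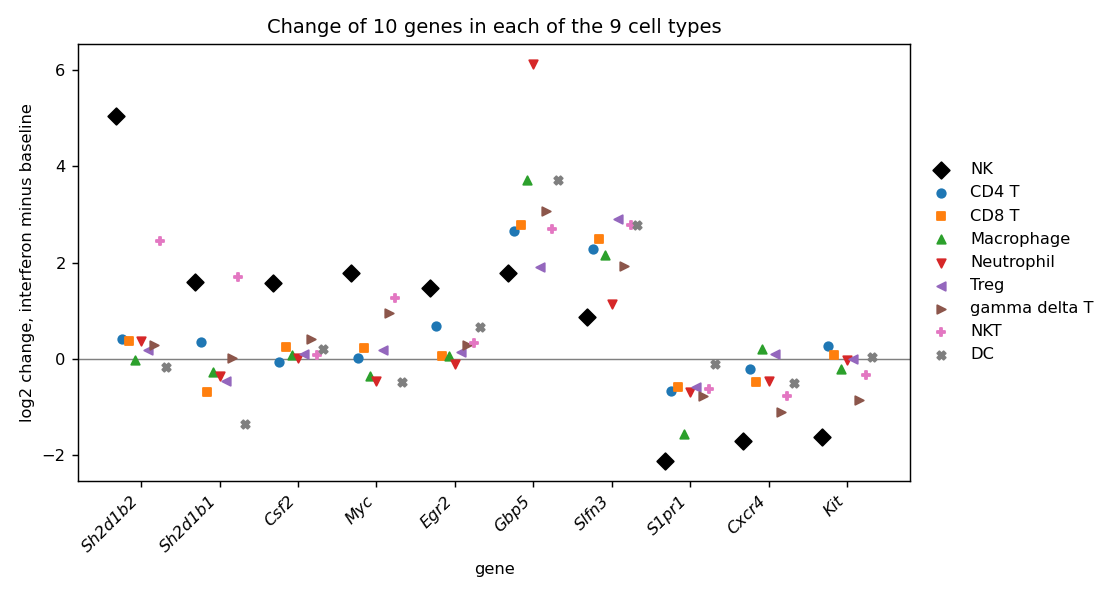
Log2 change (interferon minus baseline) of 10 genes in each of the 9 cell types; black diamonds are NK cells. Sh2d1b2 is highest in NK cells and next in NKT cells, Gbp5 and Slfn3 are lowest in NK cells, and S1pr1, Cxcr4 and Kit are most negative in NK cells.

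NKT cells, T cells that also carry NK1.1, are the closest relatives by sort. Macrophage markers were brighter on their arrays: the 11 macrophage and monocyte markers summed to between 4229 and 12929 on NKT baseline arrays and to 7545 and 18006 on the NKT interferon arrays, against at most 2033 on any NK array, and the 12 dendritic markers to between 4929 and 16225 and to 5833 and 12620, against at most 5202. The NK change exceeded the NKT change for 14 genes (0.0709%) and was smaller for 22 (0.111%). Of the 14, 4 were raised in NK cells, and of the 22, 4 were lowered and 5 raised. Sh2d1b2 again led, with 2.59 (SE 0.46, adjusted p = 0.00726), while Sh2d1b1 had a difference of -0.10 (SE 0.38, adjusted p = 0.932). Csf2 differed by 1.49 (SE 0.31, adjusted p = 0.0248) and Muc1 by 1.35 (SE 0.29, adjusted p = 0.0372). Ifi205 rose by 2.32 in NK cells and 5.84 in NKT cells, a difference of -3.52 (SE 0.59, adjusted p = 0.00402), Iigp1 differed by -2.14 (SE 0.35, adjusted p = 0.00402), and Mmp13, a collagenase gene, by -2.30 (SE 0.39, adjusted p = 0.00402). Ifi205 also changed by 5.55 in macrophages, Iigp1 by 4.96 in macrophages and Mmp13 by 2.18 in dendritic cells, and the part of such cells in these differences was not tested. Against baseline array 3 alone none was called in either direction by limma, with 492 genes larger and 395 smaller at an unadjusted p below 0.05, and the differences of Sh2d1b2 and Ifi205 were 1.74 (adjusted p = 0.852) and -2.86 (adjusted p = 0.434). Single arrays decided much here. Sh2d1b2 came to between 1.95 and 2.55 (highest adjusted p = 0.199) without interferon array 2 or NKT interferon array 1. Ifi205 came to between -3.41 and -2.61 (highest adjusted p = 0.138) without interferon array 2 or NKT interferon array 1. Csf2 came to between 1.15 and 1.53 (highest adjusted p = 0.443) without baseline array 1 or 3, interferon array 2, NKT baseline array 1 or NKT interferon array 1. Muc1 came to between 1.15 and 1.54 (highest adjusted p = 0.319) without baseline array 1 or 3, interferon array 1 or 2, NKT baseline array 1 or 2 or NKT interferon array 1 or 2. Iigp1 came to -1.84 (adjusted p = 0.0781) without interferon array 2. Mmp13 came to between -1.94 and -1.54 (highest adjusted p = 0.157) without interferon array 2 or NKT interferon array 1. Without NK baseline array 1 or 3, either NK interferon array, NKT baseline array 1 or 2 or NKT interferon array 1, the counts were 1 to 5 larger and 1 to 14 smaller, and the smaller count was 35 without NK baseline array 2, 111 without NKT interferon array 2 and 180 without NKT baseline array 3.

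CD8 T cells kill targets as NK cells do, and the change in NK cells exceeded theirs for 5 genes (0.0253%) and was smaller for 1 (0.00506%), Eomes. With quantile normalisation these counts were 10 and 4. The labelled source of CD8 T baseline arrays 1 and 2 reads blood, against spleen in their titles. Sh2d1b2 and Sh2d1b1 differed by 4.68 (SE 0.46, adjusted p = 2.21e-07) and 2.28 (SE 0.38, adjusted p = 0.00889). Eomes, a factor of cytotoxic lymphocytes, had a change of -0.43 in NK cells, from 11.94, 11.99 and 11.88 to 11.43 and 11.58, and 1.53 in CD8 T cells, a difference of -1.96 (SE 0.36, adjusted p = 0.0276). Pde5a, a phosphodiesterase gene, rose by 1.44 in NK cells and differed by 1.36 (SE 0.25, adjusted p = 0.0236). Gzmb had changes of 1.19 in NK and 2.47 in CD8 T cells, a difference of -1.28 (SE 0.63, adjusted p = 0.9999). The positive count was 1 to 3 without NK baseline array 1, either NK interferon array or any of the 5 CD8 T arrays, and the negative count was 10 without NK baseline array 2. Of the genes named here, Sh2d1b1 came to between 2.14 and 2.33 (highest adjusted p = 0.0893) without interferon array 1 or 2, CD8 T baseline array 1 or CD8 T interferon array 1 or 2. Eomes came to between -2.15 and -1.77 (highest adjusted p = 0.264) without baseline array 1, interferon array 1 or 2, CD8 T baseline array 1 or 3 or CD8 T interferon array 1 or 2. Pde5a came to between 1.23 and 1.49 (highest adjusted p = 0.264) without interferon array 1 or 2, CD8 T baseline array 1 or 3 or CD8 T interferon array 1 or 2. The differences of Sh2d1b1, Eomes and Pde5a were 1.75 (adjusted p = 0.984), -1.93 (adjusted p = 0.401) and 1.23 (adjusted p = 0.552) against baseline array 3 alone.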

How the data were processed

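The authors deposited a linear intensity for every probe set of each array. Affymetrix Power Tools and RMA are named in the submitters' processing notes, with versions and genome build not given in the sources used here. Log2 was taken of these values, with no other scaling. Of 24922 probe sets, 21425 carried 1 symbol, 1399 several and 2098 none in the platform annotation, and the brightest probe set was used for each of 921 symbols with several, which left 19752 genes. A single linear model in limma 3.58.1 (lmFit and eBayes, R 4.3.3) covered all 43 arrays in 18 groups, with 25 residual degrees of freedom, and it was tested on simulated data. The single macrophage interferon array was thus assumed to vary like other groups. p-values are two-sided and Benjamini-Hochberg adjusted over all genes within a comparison. Exact permutation of 2 against 3 arrays has too few arrangements to go below 0.05, so it was not used. The number of arrays limits the precision.

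Named genes are the 25 largest rises and 20 largest falls in NK cells among called genes whose groups did not overlap and that, with the preparation term, kept their sign and an adjusted p below 0.05, the 8 largest called differences in each direction of each comparison between cell types, and members of 27 gene lists and the marker lists. Of 585 listed genes 524 were measured, and the others were not analysed here. The members, lists and rules were chosen with earlier results of these data known, and those named from lists were picked after their values were seen. Alternatives were other samples in the fit, terms for preparation or replicate, baseline array 3 alone (17 residual degrees of freedom), dim genes left out, probe sets averaged, quantile normalisation, weights for arrays, a robust fit with a variance trend, and each array left out.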

Additional observations from a re-analysis of the deposited data

Results flagged for a closer look

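The results below stood out because a test of the difference itself, within 1 limma fit, found that the log2 change after interferon was not the same in NK cells as in the cells named. Each value is the change in NK cells minus the change in those cells.

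Against the mean of the other 8 types, the difference was 4.56 for Sh2d1b2, 1.74 for Gadd45g, 1.72 for Sh2d1b1, 1.62 for Myc, 1.44 for Csf2, 1.39 for Egr1, 1.38 for Muc1 and 1.28 for Cep85l. It was -1.55 for Gbp5, -1.50 for Nt5e, -1.50 for Kit, -1.45 for Pnp, -1.44 for Slfn3, -1.42 for S1pr1, -1.34 for Klrb1 and -1.30 for Trp53inp1. Of these 16 differences, that of Sh2d1b2 kept its call in every setting run. The Cep85l difference is from a mean and does not set NK cells apart from each type. Cep85l rose by 2.11 in NK cells and 2.55 in NKT cells, a difference of -0.44 (SE 0.39) that was not called. Its change in the remaining types ran from -0.22 in CD4 T cells to 1.62 in dendritic cells.

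Against NKT cells, the difference was 2.59 for Sh2d1b2, 2.47 for Mmp9, 1.58 for Hic1, 1.54 for Sit1, 1.49 for Csf2, 1.36 for Ckb, 1.35 for Muc1 and 1.29 for Chad. It was -3.52 for Ifi205, -2.30 for Mmp13, -2.18 for Itih5, -2.14 for Iigp1, -1.91 for Slfn3, -1.91 for Atg13, -1.88 for Tfec and -1.74 for Nt5e. In NK cells themselves Mmp9, Hic1, Sit1, Ckb and Chad had changes of -0.16, -0.23, 0.05, 0.12 and 0.11. Mmp9 is also among the 12 neutrophil markers. These summed to 1974 to 2418 on NKT baseline arrays and to 956 and 1770 on NKT interferon arrays. Their sum was at most 662 on any NK array, and the part of neutrophils in the Mmp9 difference was not tested. Atg13, an autophagy gene, had a change of -0.76 in NK cells (adjusted p = 0.0872).

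Against CD8 T cells, the difference was 4.68 for Sh2d1b2, 2.54 for Ifi207, 2.28 for Sh2d1b1, 1.36 for Pde5a and 1.20 for Tnks1bp1, and -1.96 for Eomes. That of Ifi207 had an adjusted limma p of 0.0491, and was 2.43 and not called against baseline array 3 alone. Tnks1bp1 rose by 1.02 in NK cells, but by 0.75 against baseline array 3 alone and 0.84 without baseline array 2, under the size of a call.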

How the results depend on the processing

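The number of genes raised in NK cells stayed between 176 and 305 over the settings run and between 203 and 251 with 1 NK array left out. Of 132 called genes followed, 92 kept their call in every setting, 40 lost it in at least 1, and 0 changed sign. With the 6 lymphocyte types 6 lost the call, among them Cxcl9, Ifi203, Il6st, Nr4a1 and Zfp36l2. Against baseline array 3 alone 168 genes were lowered, 3 changed more and 7 less than the other types, 0 more and 0 less than NKT cells (492 and 395 at an unadjusted limma p below 0.05), and 1 more and 0 less than CD8 T cells (344 for the latter). Array weights, whose estimation stopped before convergence, gave 263 lowered, 54 and 111 against the other 8 types, 213 and 716 against NKT cells and 52 and 64 against CD8 T cells. With the 6 lymphocyte types there were 10 and 8 against the other 5, and 3 and 0 against CD8 T cells (329 for the latter at an unadjusted limma p below 0.05). Fits of 2 cell types alone gave 2 and 2 against NKT cells and 10 and 4 against CD8 T cells. Quantile normalisation gave 40 smaller against NKT cells and 10 and 4 against CD8 T cells, where the preparation term gave 9 and 2, a variance trend with robust moderation 3 larger, and leaving out dim genes 2 smaller. With 1 array left out, lowered genes ranged from 63 to 241, differences from the other 8 types from 2 to 17 larger and from 0 to 60 smaller (467 at an unadjusted limma p below 0.05 in the case of 0), from NKT cells from 1 to 20 and from 1 to 180, and from CD8 T cells from 1 to 5 and from 0 to 10 (at least 269 at an unadjusted limma p below 0.05 where the count was 0). The cause of these shifts was not tested.

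Replicate numbers are shared between groups, but nothing says that they pair arrays. Deviations from the group means correlated at 0.13 and 0.34 within the 2 numbers in NK cells and between -0.30 and 0.35 in other types. With the replicate number as a block there were 270 raised and 70 lowered genes, 21 and 24 against the other 8 types, 15 and 142 against NKT cells and 5 and 1 against CD8 T cells, and Kit came to -1.17 (adjusted p = 0.0520) in NK cells. With 3 and 2 arrays and no detection calls, changes of dim genes are the least certain.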
